A study of Mus musculus with 4 samples.

Results

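The replication-dependent histone genes encode the bulk histones made in S phase to package newly copied DNA. They were taken as the protein-coding genes of the GENCODE M21 annotation whose symbols start with Hist1h, Hist2h, Hist3h or Hist4, which gave 67 of the 21670 protein-coding genes on chromosomes 1 to 19 and X. Of these 67 genes, 6 encode the linker histone H1, 18 encode H2A, 18 encode H2B, 12 encode H3 and 13 encode H4. The Hist1 cluster on chromosome 13 held 54 of them, Hist2 on chromosome 3 held 10, Hist3 on chromosome 11 held 2 and Hist4 on chromosome 6 held 1.

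The data were ChIP-seq peak lists from cultured neural stem cells of wild-type C57BL/6J mouse embryos at E12.5, kept in medium with FGF at 10 ng/ml and EGF at 20 ng/ml. The groups were a PHF2 immunoprecipitation (Cell Signaling antibody D45A2), its input, an H3K9me2 immunoprecipitation (Abcam antibody ab1220) and its input, with 1 sample each. All samples were wild type and the labels name no treatment. The 5992 called PHF2 peaks and the 36111 called H3K9me2 regions were analysed, and the inputs and reads were not analysed here. With 1 sample per group there is no measure of spread between cultures, the read depth is unknown, and a gene without a peak is only one at which no peak was listed. The promoters of 8 of 10 neural stem cell genes had a PHF2 peak, as did 1 of 5 neuron, 0 of 4 glia and 0 of 3 microglia marker genes, beside 29.1% of all protein-coding genes. The last 3 lists are too short to be told apart from that share, and a peak is not a measure of expression.

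PHF2 is a histone demethylase of the Jumonji family, whose PHD finger binds H3K4me3, the mark of active promoters. H3K9me2, histone H3 dimethylated at lysine 9, is a mark of silent chromatin and is described as a PHF2 substrate. Replication-dependent histone genes are small, mostly lack introns and lie in dense clusters. NPAT, a coactivator switched on at the start of S phase, gathers at these clusters in histone locus bodies, HINFP binds H4 promoters, and the octamer factor POU2F1 acts on H2B promoters. Their mRNAs end in a stem-loop bound by SLBP and carry no poly(A) tail. Some members are instead made in male germ cells, among them Hist1h1t, Hist1h2aa and Hist1h2ba.

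The stem-loop was found within 150 bases after the stop codon in 65 of the 67 genes. It is shown because it marks the mRNAs of these genes, and other histone genes were not searched for it. Stem bases are in capitals, the sequences are DNA letters 5′ to 3′ of the GRCm38 genome, and the examples come from Hist1h1b, which shared its letters with 41 genes in all, from Hist1h4d, with 8 genes, and from Hist1h1t, with 9 genes.
Hist1h1b: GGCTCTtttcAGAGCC
Hist1h4d: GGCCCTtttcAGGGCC
Hist1h1t: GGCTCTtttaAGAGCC
No copy was found in that stretch for Hist1h2an and Hist2h2be. The testis genes Hist1h1t, Hist1h2aa and Hist1h2ba carried it like the others, so the motif does not separate them.

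The promoters themselves are shown next, as the 150 bases before the RefSeq start (RefSeq on GRCm38, 5′ to 3′ on the gene's strand). The motif letters searched on both strands are in capitals. They are the TATA box (TATAAA), the CCAAT box (CCAAT), the octamer (ATTTGCAT), the H1 box (AAACACA), the core of the HINFP site (GGTCCG) and an E2F site (TTTCGCGC or TTTGGCGC). Each pair or trio sets a gene with a PHF2 peak beside genes of the same histone type without one. The H4 genes are Hist1h4d (chr13:23581418-23581567, plus strand), with a peak, Hist1h4i (chr13:22041363-22041512, minus strand), without one, and Hist1h4m (chr13:21811596-21811745, plus strand), without one and in nearly wholly repeated sequence.
Hist1h4d: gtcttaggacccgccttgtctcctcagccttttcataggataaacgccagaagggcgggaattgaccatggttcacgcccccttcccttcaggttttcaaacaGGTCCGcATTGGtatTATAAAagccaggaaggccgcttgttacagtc
Hist1h4i: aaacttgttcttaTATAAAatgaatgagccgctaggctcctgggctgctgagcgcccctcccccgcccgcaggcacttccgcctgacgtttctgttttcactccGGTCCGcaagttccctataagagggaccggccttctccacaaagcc
Hist1h4m: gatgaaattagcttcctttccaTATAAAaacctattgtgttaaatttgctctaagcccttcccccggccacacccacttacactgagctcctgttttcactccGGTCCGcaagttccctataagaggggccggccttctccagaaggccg
All of these H4 stretches carry the HINFP core. The exact letters TATAAA begin 32 bp before the start in Hist1h4d, but 137 bp before it in Hist1h4i and 128 bp in Hist1h4m. Near matches were not searched. Hist1h4i and Hist1h4m hold such a near match, tataag, much closer to the start, so no lack of a TATA box is shown. The H1 genes are Hist1h1b (chr13:21780626-21780775, minus strand), with a peak, and the testis gene Hist1h1t (chr13:23695661-23695810, plus strand), without one.
Hist1h1b: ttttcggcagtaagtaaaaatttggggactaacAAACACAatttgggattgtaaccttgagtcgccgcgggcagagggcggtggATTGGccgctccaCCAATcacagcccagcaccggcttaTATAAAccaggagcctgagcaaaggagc
Hist1h1t: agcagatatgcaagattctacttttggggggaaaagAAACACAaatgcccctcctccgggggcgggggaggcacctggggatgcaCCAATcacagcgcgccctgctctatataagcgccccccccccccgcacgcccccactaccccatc
Both H1 stretches hold the H1 box and a CCAAT box, and the exact TATAAA is in that of Hist1h1b. The H2A genes are Hist1h2ak (chr13:21753913-21754062, minus strand), with a peak, and Hist1h2an (chr13:21787249-21787398, minus strand), without one. The H2B gene Hist1h2bq (chr13:21810200-21810349, minus strand) is added because its stretch is identical, base for base, to that of Hist1h2br.
Hist1h2ak: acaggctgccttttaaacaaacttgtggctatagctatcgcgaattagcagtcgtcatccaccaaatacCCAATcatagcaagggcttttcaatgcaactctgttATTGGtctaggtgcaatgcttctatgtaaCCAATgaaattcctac
Hist1h2an: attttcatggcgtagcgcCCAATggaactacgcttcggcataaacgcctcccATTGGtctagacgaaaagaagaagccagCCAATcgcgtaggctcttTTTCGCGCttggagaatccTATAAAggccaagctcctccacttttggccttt
Hist1h2bq: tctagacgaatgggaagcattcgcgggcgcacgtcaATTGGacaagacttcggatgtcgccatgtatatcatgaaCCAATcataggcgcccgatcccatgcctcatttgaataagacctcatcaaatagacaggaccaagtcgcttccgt
All of these hold CCAAT boxes, and the only E2F letters among the printed stretches are in Hist1h2an.

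PHF2 peaks lay at most of the histone genes. A peak overlapped the promoter, taken as 1000 bp to each side of a start, in 38 of the 67 genes (56.7%), beside 29.1% of all protein-coding genes and 29.0% of the 21603 others. Neighbours shared peaks, so the 38 genes rested on 29 distinct peaks. Of the 2 other protein-coding genes among them, Trim17 shared the peak of Hist3h2a and Hfe, a regulator of iron uptake, had none. A transcript start itself lay under a peak in 33 of the 38 genes. With RefSeq starts the count was 39, and 37 genes had a peak over the coding exon. Genes that share a peak or a cluster are not independent, so these shares are given without a test. The shares are also not matched for CpG content, which is set out further on.

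The shares differed between histone types, and with these windows H3 genes had the highest. A peak lay at 11 of 12 H3 genes (91.7%), which encode the core histone that carries the K9 residue, and at 9 of 13 H4 genes (69.2%), the partner of H3 in the central tetramer. Of the linker histone genes, 4 of 6 (66.7%) had one. For H2A and H2B, whose products form the outer dimers of the nucleosome, the counts were 7 of 18 (38.9%) each. H1, H3 and H4 genes together had a peak in 24 of 31 cases (77.4%) and H2A and H2B genes in 14 of 36 (38.9%). Among genes with less than 50% of repeated sequence, defined further on, these counts were 22 of 27 (81.5%) and 14 of 30 (46.7%). This pooling was not among the planned counts. It sets the types with the higher shares against those with the lower, so its gap adds nothing to the counts by type. The place of H3 depended on the settings. With a peak required over the start, 9 of 13 H4, 8 of 12 H3 and 4 of 6 H1 genes had one, and with windows of 2000 bp 6 of 6 H1 and 11 of 12 H3 genes did. With the higher-scoring 50% of all PHF2 peaks, which marked 14.8% of all protein-coding genes, the share of H4 genes was no longer above that of H2A genes. A peak then lay at 3 of 6 H1, 5 of 12 H3, 4 of 13 H4, 6 of 18 H2A and 5 of 18 H2B genes. With only the higher-scoring 25% of all PHF2 peaks, which marked 7.35% of all protein-coding genes, a peak lay at 3 of 6 H1, 2 of 12 H3, 1 of 13 H4, 4 of 18 H2A and 4 of 18 H2B genes. The shares of H3 and H4 genes were then below those of H2A and H2B genes. The differences between types were not tested, because genes within a cluster are not replicates.

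**Figure D1:**
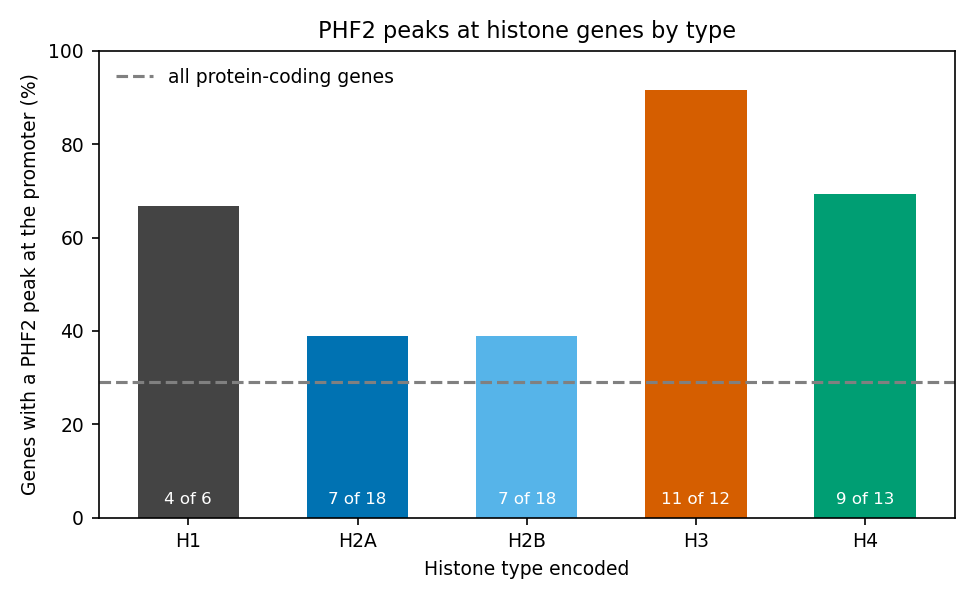
The y axis gives the percentage of genes of each histone type (x axis) with a PHF2 peak at the promoter, with the counts in the bars and the 29.1% of all protein-coding genes as a dashed line. All types lie above the line, H3 the farthest with 11 of 12 and H2A and H2B the nearest with 7 of 18 each.

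The linker histone genes, whose products bind the DNA between nucleosomes, held 3 of the 6 highest scores. The authors' score, 1 deposited value per peak on an unstated scale, ran from 106.63 to 888.05 over the 29 peaks. Its median was 245.54 at histone promoters, against 230.23 for the 5701 other peaks at protein-coding promoters. The highest score among them, 888.05, was that of Hist1h1e, at a peak 2164 bp long (chr13:23620777-23622940), rank 248 among all 5992 peaks. Hist1h1b had a peak of 583.40 (chr13:21779225-21780989) and Hist1h1c one of 423.08 (chr13:23738500-23740055). Hist1h1a had a weaker peak of 191.54. These 4 genes had the peak over their start and over the whole of the coding exon.

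The remaining linker genes were Hist1h1d and the testis gene Hist1h1t. The GENCODE start of Hist1h1d, at chr13:23553262, lay 1372 bp from the nearest peak, so the gene counted as one without a peak. Its RefSeq start lies 1770 bp downstream, at chr13:23555032, and a peak of 2018 bp with a score of 741.63 (chr13:23554663-23556680, rank 398 of all peaks) covered that start and the whole coding exon. It was the only PHF2 peak within the histone gene groups that lay at no GENCODE histone promoter. By RefSeq starts, H1 genes therefore had a peak in 5 of 6 cases, all but Hist1h1t, whose start lay 1556 bp from the nearest peak.

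The H3 genes had peaks of lower score. Hist1h3g had the highest among the H3 genes of chromosome 13, 397.66 (chr13:23535051-23536706), and was followed by Hist1h3h with 321.39 and Hist1h3c with 288.25. Hist1h3f and its H2B neighbour Hist1h2bh shared the weakest pair of peaks at any histone gene, with scores of 106.63 and 116.87. Scores of 130.58 at Hist1h3e and 189.69 at Hist1h3i lay in the lower part of the range as well. Hist1h3b was the single H3 gene without a peak, and the nearest one lay 6602 bp from its start. When only the higher-scoring 50% of all PHF2 peaks were kept, 5 of 12 H3 genes still had one.

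The H4 genes had their peaks over the start and the coding exon in 9 of 9 cases. The highest scores were 378.43 at Hist2h4 (chr3:96262374-96263751) and 349.10 at Hist1h4d (chr13:23581153-23582522). The lowest were 120.33 at Hist4h4, the lone histone gene on chromosome 6 (chr6:136803650-136804829), and 136.39 at Hist1h4f. No peak was listed for Hist1h4b, Hist1h4i, Hist1h4m and Hist1h4n. The last 2 lie in an inverted duplicate, and 95.8% and 95.7% of their window is repeated elsewhere, whereas the windows of Hist1h4b and Hist1h4i are repeated in 10.96% and 13.1%.

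H2A and H2B genes are mostly arranged as divergent pairs that share a promoter. There were 12 such pairs, with starts 176 to 306 bp apart (median 259.5 bp). In 4 pairs both genes had a peak, and in each of these 1 peak covered both starts. The pairs were Hist1h2bl and Hist1h2ai (256.99), Hist1h2ak and Hist1h2bn (375.34), Hist1h2ae and Hist1h2bg (187.89), and Hist2h2ac and Hist2h2be (702.21). In 7 pairs neither gene had a peak, and in 1 pair only Hist1h2ad counted as having one. That peak, with a score of 245.54, lay over the start of the H3 neighbour Hist1h3d and 833 bp from the start of Hist1h2ad, and the gene lost it with a window of 500 bp. H2A and H2B genes in a pair had a peak in 9 of 24 cases and those outside a pair in 5 of 12.

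Peaks at H1, H3 and H4 genes mostly began shortly before the start and ran past the end of the coding exon. Over the 33 genes with a start under a peak, the peak reached a median of 445 bp upstream and 1028 bp downstream, and in 26 of 33 it reached farther downstream. The types differed in this. All 8 H3 and all 4 H1 genes of this kind were among those 26, as were 8 of 9 H4 and 4 of 6 H2A genes, but only 2 of 6 H2B genes. At the H2B genes the medians were 1079 bp upstream and 563 bp downstream. Each of these 6 H2B genes shared its peak with a neighbouring histone gene, and part of the upstream reach lay over that neighbour. The difference between types is therefore not separate from the sharing of peaks. Of the 67 coding exons, 31 lay wholly under a peak. The peaks were 800 to 2206 bp long (median 1378 bp), against a median of 1309 bp for the other promoter peaks, while the coding exon of an H4 gene such as Hist1h4d spans 309 bp.

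**Figure D2:**
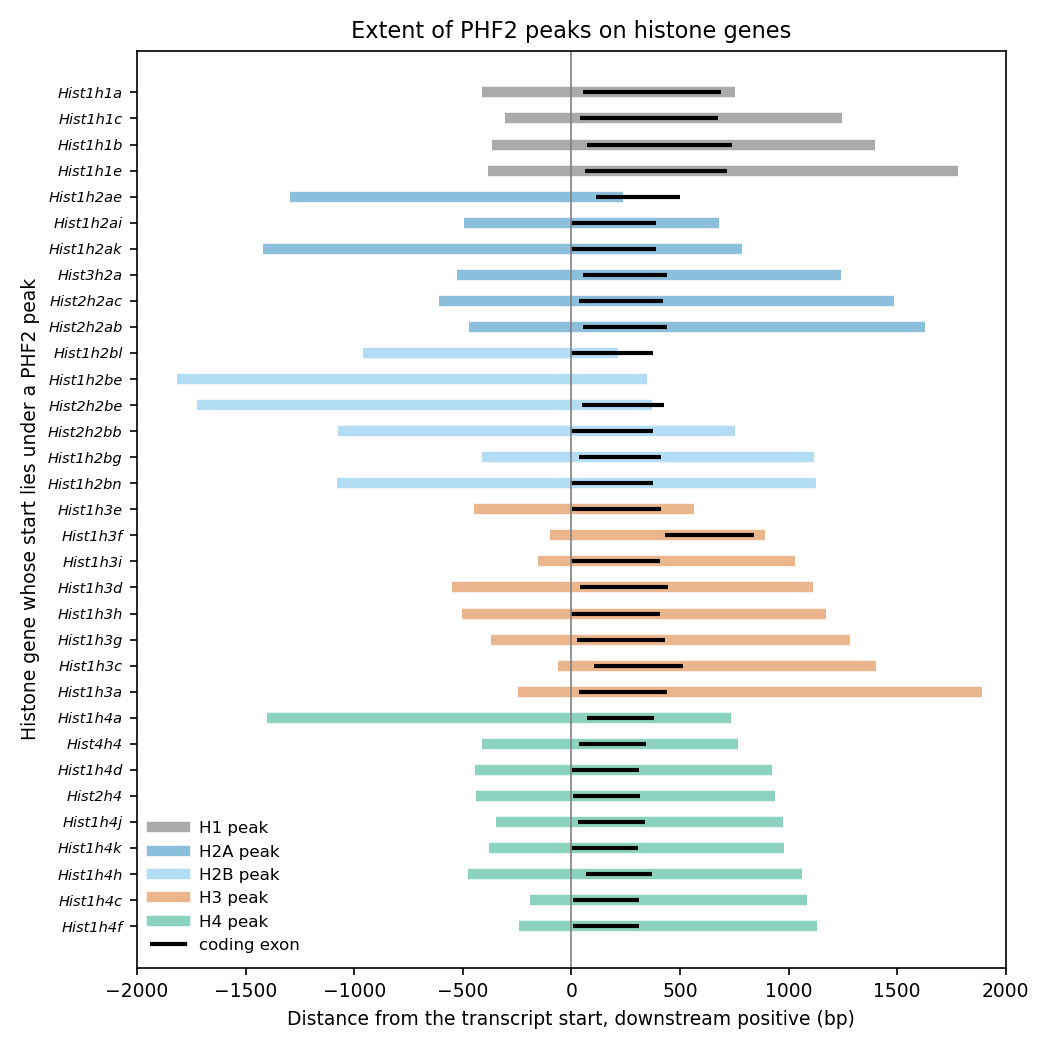
Each row is a histone gene whose GENCODE start lies under a PHF2 peak, with the peak as a coloured bar, the longest coding exon as a black bar and distance from the start in bp on the x axis (downstream positive). In 26 of 33 rows the peak reaches farther downstream than upstream, and the coding exon of Hist1h2be lies outside the range drawn.

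Hist1h2be, an H2B gene, shared the highest-scoring peak with Hist1h1e only through a distal start. Its GENCODE starts lie next to Hist1h1e, 35168 bp before the coding exon, and no part of that exon lay under a peak. The nearest peak to the exon was 3057 bp away. The same peak covered both the start and the coding exon of Hist1h1e.

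The Hist2 cluster on chromosome 3 had a peak at 8 of 10 genes from 5 peaks. The highest, 702.21 (chr3:96219393-96221492, 2100 bp), covered the starts of Hist2h2ab, Hist2h2ac and Hist2h2be and also counted for Bola1, the neighbouring gene outside the histone family. A peak of 471.79 (chr3:96268675-96270505) covered the start of the H2B gene Hist2h2bb and began 21 bp from that of the H3 gene Hist2h3b. Hist2h3c2 and Hist2h3c1, near-identical copies, had peaks of 223.52 and 169.99 that began 459 and 463 bp from their starts. The windows of this copied pair were repeated in 79.6% and 80.6% of their sequence, but the 2 peaks themselves in only 18.4% and 21.9%. Between them, the duplicated H2A genes Hist2h2aa1 and Hist2h2aa2 had no peak, and the nearest ones lay 1651 and 1608 bp from their starts. On chromosome 11, Hist3h2a had a peak of 530.00 (chr11:58954160-58955926) and Hist3h2ba had none within 5240 bp.

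Along chromosome 13 the genes without a peak lay partly side by side. Split at gaps over 100 kb, the Hist1 cluster fell into 4 groups. The first group (chr13:21715763-21837530) had a peak at 9 of 18 genes, the second (chr13:22035164-22043676) at 0 of 5, the third (chr13:23531050-23764406) at 19 of 29 and the fourth (chr13:23933773-23934851) at 0 of 2. The 13 consecutive genes from Hist1h2an to Hist1h2bj, spread over 256.851 kb, had no peak at their promoters. The stretch without histone genes between the first and second groups lies among them, spans 197.633 kb and held 1 PHF2 peak. Of the 13 genes, 6 lay in windows repeated in 90% or more. The other 7, Hist1h2an, Hist1h2bp, Hist1h2ah, Hist1h2bk, Hist1h4i, Hist1h2ag and Hist1h2bj, lay in windows repeated in less than 50%. Shorter runs without a peak were Hist1h2ac, Hist1h2bc and Hist1h1t, and Hist1h2bb, Hist1h2ab, Hist1h3b and Hist1h4b. In all, the groups of 2 or more genes held 68.6 PHF2 peaks per Mb, against 2.34 per Mb over the genome outside assembly gaps. These groups were cut from the first to the last histone gene and pack 66 of them into 422.896 kb. The 2 rates therefore compare stretches of unlike gene density and are no measure of enrichment per gene.

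**Figure D3:**
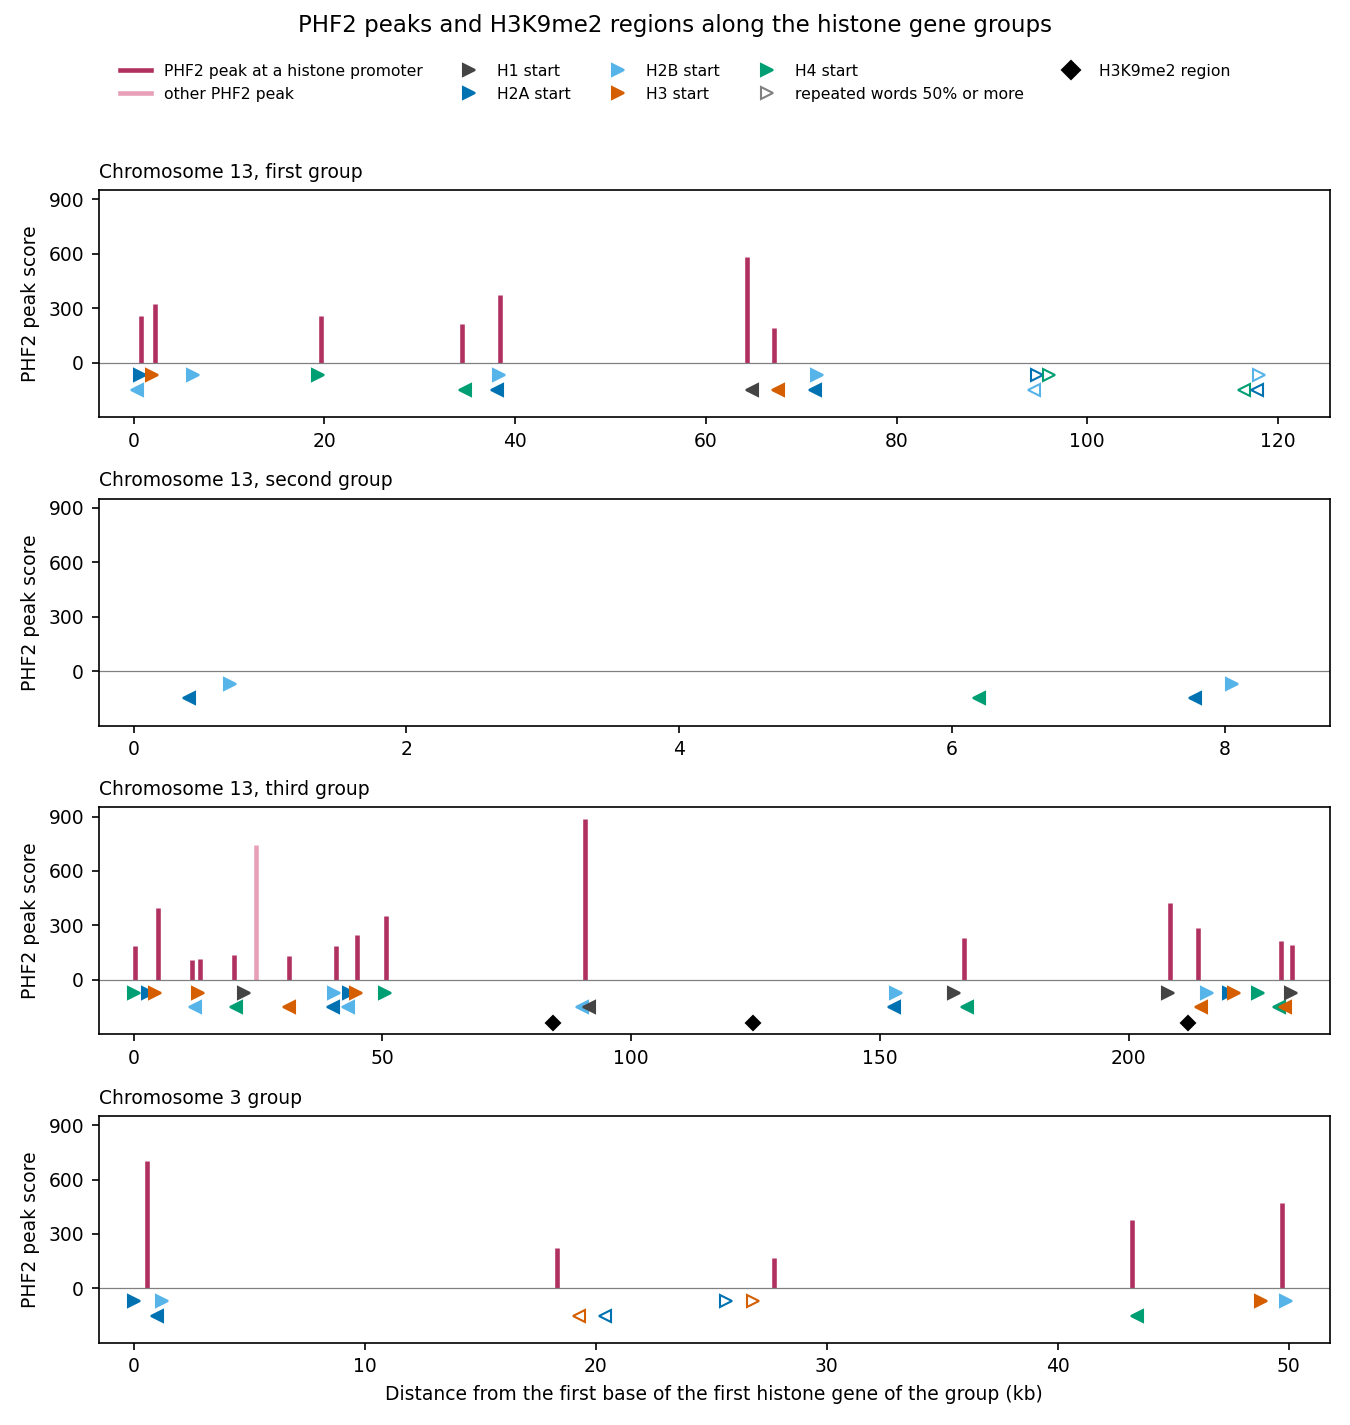
Arrowheads mark histone gene starts and their direction, coloured by type and open where 50% or more of the window is repeated, vertical lines the PHF2 peaks with their score on the y axis, and diamonds the H3K9me2 regions, over distance in kb on the x axis. The right end of the first group and the whole second group hold starts but no peak, and the 3 H3K9me2 regions all lie in the third group.

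The testis genes had no PHF2 peak. Hist1h2ba and Hist1h2aa, the divergent pair that forms the fourth group, lay 169736 and 170042 bp from the nearest peak. Their windows were repeated in only 10.7% each and had a CpG observed/expected ratio of 0.65 and 0.63, and that of Hist1h1t was 0.41 with no repeated words. Hist1h1t lies within the third group, beside Hist1h4c with a peak of 229.99, and gained that peak with a window of 2000 bp. With 3 genes and a background of 29.1%, a count of 0 is not a result about testis genes.

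Copies of a histone gene are hard to tell apart by reads, so the repetition of each promoter window was measured as the share of its 32-base words found elsewhere in the genome. The read length and the treatment of reads that map to several places are not known here. The median share was 24.5% at histone genes, against 2.10% at other protein-coding genes, and 56 of 67 windows (83.6%) reached 10% or more, against 18.9% of the others. Of the 6 histone genes repeated in 90% or more, 0 had a peak, as did 0 of 636 other genes in that class. In the class of 25 to 50%, 11 of 22 histone genes had a peak, against 4.19% of other genes. Between 10 and 25% the counts were 16 of 24, against 17.3%, and between 1 and 10% they were 8 of 8, against 31.01%. Between 50 and 90%, 2 of 4 histone genes had a peak, against 0.485% of the others, and under 1% it was 1 of 3, against 36.6%. The part of repetition in the missing peaks was not tested. Over the 250 bp before the start alone, the median repeated share of histone genes was 0%.

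**Figure D4:**
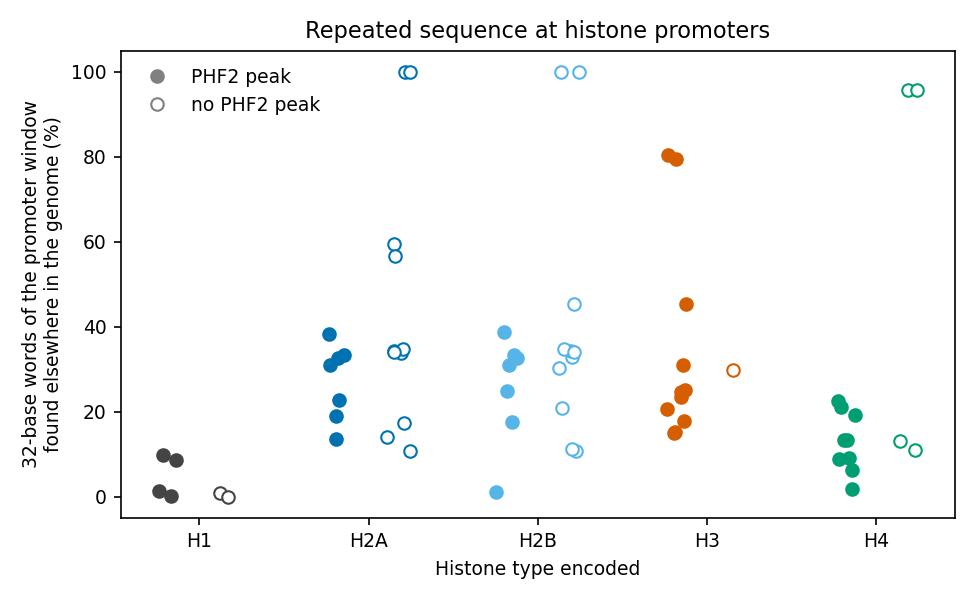
Each point is a histone gene, filled where it has a PHF2 peak and open where it has none, with its type on the x axis (points spread sideways) and the percentage of 32-base words of its promoter window found elsewhere on the y axis. All 6 genes at 90% or more are open, and open points also occur in every type at less than 50%.

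The promoter windows of histone genes were rich in CpG dinucleotides. These windows reach 1000 bp past the start, so at such small genes they also take in coding sequence, as with the 309 bp exon of Hist1h4d. The median CpG observed/expected ratio was 0.757 in histone windows, against 0.427 in those of other genes, while GC content was alike, with medians of 49.4% in histone windows and 50.2% in the others. In the top decile of all protein-coding genes by this ratio lay 37 histone genes, of which 20 (54.1%) had a peak, against 73.5% of the other genes in it. In the ninth decile 10 of 15 histone genes had a peak (66.7%), against 60.0%, in the eighth 5 of 9 (55.6%), against 48.3%, and in the seventh 3 of 4, against 41.7%. The share of histone genes with a peak was below that of other genes in the top decile, which held 37 of the 67 histone genes. It was above that of other genes in the 3 deciles under it, which held 15, 9 and 4. These differences were not tested. The share of 29.1% over all protein-coding genes covers every decile and is not matched to the histone genes in CpG ratio. In the lowest decile, which held no histone gene, 0 of 2167 other genes had a peak.

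**Figure D5:**
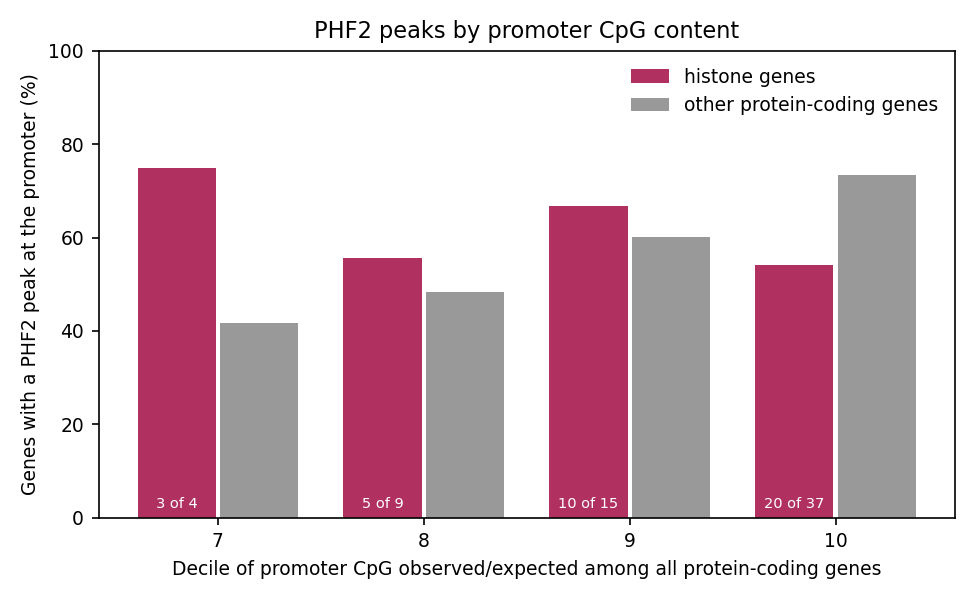
The y axis gives the percentage of genes with a PHF2 peak in the top 4 deciles of promoter CpG observed/expected (x axis), for histone genes (red, counts in the bars) and other protein-coding genes (grey). In the top decile the red bar, at 54.1%, is lower than the grey one, at 73.5%.

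The promoter motifs differed between the histone types. They were counted in the 250 bases before the start in 63 RefSeq promoters that matched 62 of the 67 genes, beside 21045 protein-coding promoters. The divergent partners share most of these bases and are counted for each gene. The CCAAT box occurred in 52 of 63 (82.5%), against 35.6% of all promoters, and in every H1, H2A and H2B promoter matched but in only 3 of 12 of H4. The TATA box letters occurred anywhere in the stretch in 29 (46.0%), against 11.7%. The octamer was found in 7 of 18 H2A and 7 of 17 H2B promoters and in none of H1, H3 or H4, against 1.59% of all promoters. The H1 box was in 5 of 6 H1 promoters, against 5.50%. The HINFP core was in 9 of 12 H4 promoters, against 8.50%, and these were 6 of 8 with a PHF2 peak and 3 of 4 without. The octamer was in 3 of 7 H2A promoters with a peak and in 4 of 11 without. The E2F letters were found in H2A and H2B promoters alone among the 63, against 0.855% of all promoters. For H2A they were in 0 of 7 with a peak and 3 of 11 without, and for H2B in 0 of 7 and 4 of 10. Over all types, the TATA letters were in 14 of 35 promoters with a peak and 15 of 28 without, the CCAAT box in 28 of 35 and 24 of 28, and the H1 box in 3 of 35 and 6 of 28. For H1 genes alone, the H1 box was in 3 of 4 with a peak and 2 of 2 without. A match says only that the letters are there.

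H3K9me2 was not listed at any histone promoter. The listed regions were only 73 to 367 bp long, and whether broader stretches carry the mark was not looked at. A region overlapped the window of 0 of the 67 genes, beside 2.30% of all protein-coding genes. At that share 67 genes would hold 1.54, and a count of 0 of 67 allows a share of up to 4.48%, so the list is too short to tell the histone genes from the rest. With windows of 2000 bp the count was 0 (4.98% of all genes). With 5000 bp it was 3, Hist1h1c, Hist1h3c and Hist1h2bb (4.48%, against 12.2% of all genes), and with 10000 bp it was 12 (17.9%, against 21.6%). The median distance from a start to the nearest region was 51319 bp for histone genes, against 34159 bp for other genes.

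Between the genes, 3 H3K9me2 regions lay inside the groups, all in the third group of chromosome 13 and each of 73 bp, the shortest length in the list. The region at chr13:23615353-23615425 lay in the intron of Hist1h2be, 5669 bp from its distal start and 5352 bp from the 888.05 PHF2 peak. The one at chr13:23655571-23655643 lay outside any gene body, between Hist1h1e and Hist1h2ac and 28305 bp from the nearest histone gene start. The one at chr13:23742861-23742933 lay between Hist1h1c and Hist1h3c, 1267 bp from the PHF2 peak of Hist1h3c (288.25), so the lists came close without meeting. This made 7.09 regions per Mb of group (95% Poisson interval 1.46 to 20.7, counting error only), against 14.1 per Mb over the genome and 15.1 over chromosome 13, both within the interval. Outside the groups, the stretch between the third group and the testis pair held 23.6 per Mb (4 regions), that between the second and the third group 11.4 (17 regions) and that between the first and second 10.1 (2 regions). The testis pair had a region 5656 bp from the start of Hist1h2aa.

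Genes that act with the replication-dependent histones were looked at in lists of known function. Of 18 genes for the transcription and 3′ processing of histone mRNA, 14 had a PHF2 peak. Among them were Pou2f1, the octamer factor (433.74), Ncbp1, a subunit of the nuclear cap-binding complex (378.11), Cpsf2, a subunit of the cleavage complex (367.94), Slbp, the stem-loop binding protein (278.29), Hinfp, the H4 promoter factor (173.95), and Npat (168.41). Lsm10, Sympk, Zfp473 and Cstf2 had none. Of 12 replication-independent histone variant genes 9 had a peak, led by H2afx (886.67), which encodes the H2A variant phosphorylated at DNA breaks, and by H3f3b (839.97) and H3f3a (670.22), which encode H3.3. H2afv, H1foo and H2afj had none. Of 12 chaperone genes 8 had a peak, led by Hira (543.98), an H3.3 chaperone, and followed by Nasp (313.31) and Npm1 (311.82). Asf1a (264.83) and Hat1 (246.27) had one as well. No peak was listed for Asf1b, Daxx, and Chaf1a and Chaf1b, the genes of the replication-coupled CAF-1 subunits. H3K9me2 lay at the promoter of 1 gene of these 3 lists, Hjurp, which encodes the CENP-A chaperone and also had a PHF2 peak (144.34). These counts of 14 of 18, 9 of 12 and 8 of 12 stand beside the 29.1% of all genes and, like those of the histone genes, were not tested. Most promoters of these lists also lie in deciles 7 to 10 of the CpG ratio. In those deciles 41.7% to 73.5% of the genes other than the replication-dependent histone genes had a peak.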

How the data were processed

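Per the file headers, the PHF2 list came from MACS run in Galaxy, and the submitters' processing notes list Bowtie2 and mm10. Of the H3K9me2 caller, all settings and the controls, nothing was given in the sources used here. In the analysis, the deposited PHF2 list holds 1 score per peak by the authors, used only to rank peaks within that list, and the deposited H3K9me2 list has a score of 0 throughout. Of its 36171 regions, 60 lay on scaffolds and were left out.

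Peaks were set against GENCODE M21 starts of protein-coding transcripts on GRCm38 (mm10), with windows of 1000 bp on either side and an overlap of 1 bp or more (Python 3.11.15, pandas 2.3.3, numpy 2.4.6). Repetition was counted in 32-base words over chromosomes 1 to 19, X and Y, on either strand. Poisson and Wilson intervals at 95% came from scipy 1.17.1. The overlap and word counts were tested on simulated data. Coordinates are 1-based. No read totals were analysed, so the depth is unknown. Alternatives were other windows, starts, score limits, gaps and word lengths. Named were the testis genes, genes outside chromosome 13, the highest-scoring peaks, pairs that share a peak, genes without a peak, and up to 6 genes of each further list, with further members as examples chosen after their values were seen. The members and lists were chosen with earlier results of these data known.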

Additional observations from a re-analysis of the deposited data

How the results depend on the processing

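No paired analysis was possible because each group had 1 sample and no test was run. Of the values recomputed under other settings, 111 stayed within 1.5 times the value given, or within a like bound, and 26 moved. With the higher-scoring 50% of PHF2 peaks, 23 histone genes had a peak (16 peaks, median score 377), beside 14.8% of all protein-coding genes, with 5 H3, 4 H4, 16 Hist1 and 0 Hist4 genes. With the higher-scoring 25%, 14 had one (9 peaks), beside 7.35%, with 4 H2A, 4 H2B, 2 H3, 1 H4, 7 Hist1 and 0 Hist4 genes. These follow from fewer peaks being counted. At both score limits H1 genes, with 3 of 6, had the highest share, and H3 and H4 genes no longer led. With windows of 2000 bp, 45 histone genes had a peak, 1 of them a testis gene. With 5000 bp it was 49, with 1 testis gene, 11 H2A and 11 H2B genes, and 3 genes had an H3K9me2 region. Asking for a peak over the start left 5 Hist2 genes. With RefSeq starts, chosen after seeing the data as were the counts over coding exons and at less than 50% repetition, 39 histone genes had a peak, with 37 over coding exons and 36 at less than 50% repetition. H3K9me2 density was 11.4 regions per Mb with groups split at gaps of 200 kb, and 0 with regions longer than the shortest length. The median repeated share was 0% over the 250 bp before the start. Read depth and mapping limit what the absence of a peak in duplicated genes can show.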
